A study of Mus musculus with 34 samples.

Results

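The enzymes of haem synthesis were followed in mouse blood through 8 genes: Alas1, Alas2, Alad, Uros, Urod, Cpox, Ppox and Fech. They were matched by symbol to 8 of the 54532 gene IDs in the count tables. The genes were chosen by their measured values in these same libraries, namely their levels in the 4 treatment groups and against the share of counts taken by globin genes. Those levels and every contrast between the groups are therefore given as descriptions of the 8 genes, with no test. All 8 passed the filter on low counts in every comparison.

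The mice were wild type (WT) in all groups, and each library came from the blood of 1 mouse. The controls were 9 mice given PBS (phosphate-buffered saline), and 10 mice received ALY688, an adiponectin receptor agonist by the series title. A further 4 mice received LPS (lipopolysaccharide, a bacterial outer membrane component), and 7 received ALY688 together with LPS. The series text describes a search for plasma markers of ALY688 and, apart from it, a sublethal LPS experiment in whole blood, so LPS and the experiment cannot be told apart in the comparisons across LPS. The dose and timing of each agent, and the sex and age of the mice, are in none of the sources used here.

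Haem is an iron porphyrin that carries oxygen in haemoglobin and electrons in cytochromes and oxidases. Its synthesis starts and ends in mitochondria, with the middle steps in the cytosol. The first step, the joining of glycine and succinyl-CoA to 5-aminolevulinic acid, limits the rate and is made by a different gene in different cells. Alas1 serves most tissues and is repressed by haem, whereas Alas2 on the X chromosome is the erythroid form, driven by GATA1 with other erythroid factors and held in step with iron through its messenger RNA. Alad, Uros and Urod then build and trim the porphyrin ring in the cytosol, Cpox and Ppox oxidise it in mitochondria, and Fech inserts the iron.

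A few short genomic stretches and a messenger RNA element are shown because the contrast between the 2 first-step genes is what the levels turn on. Capitals mark matches, on either strand, to the GATA motif (AGATAA, also with T as its leading base or G as its closing base), the CACCC box bound by KLF1-type factors (CCACCC) or a core of the motif of NRF1, a regulator of genes for mitochondrial function (GCATGCGC). Sequences are from RefSeq on GRCm38.p6, printed 5′ to 3′ on the strand of the gene.
Alas2, chrX:150547167-150547374, plus strand, upstream of the annotated transcripts: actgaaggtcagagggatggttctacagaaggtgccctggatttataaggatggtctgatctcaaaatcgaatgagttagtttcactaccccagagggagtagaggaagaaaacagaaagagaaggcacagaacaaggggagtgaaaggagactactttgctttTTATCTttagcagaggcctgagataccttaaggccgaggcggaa
Alas2, chrX:150547370-150547399, plus strand, around the CACCC boxes: cggaaggGGGTGGGGTGGGGTGGgcggggc
Alas1, chr9:106247906-106247935, minus strand, around the NRF1 core: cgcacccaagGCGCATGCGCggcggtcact

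The Alas2 window of 250 bases before its RefSeq start held 1 GATA match, at base -86, and 3 overlapping CACCC boxes from base -40. Of the 2 Alas1 windows, the one with the more downstream start held the NRF1 core on both strands of a single palindromic stretch, at bases -195 and -193, and no GATA match or CACCC box. The other Alas1 window held 1 CACCC box. Among 32851 RefSeq windows of the same length, 26.5% held a GATA match, 28.1% a CACCC box and 2.26% the NRF1 core. Cpox had 2 GATA matches, 1 of the 2 Uros windows had 2, and Alad, Ppox and Urod had none of the 3 motifs. A match is a description of letters, and no binding was measured.

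The Alas2 messenger RNA also carries an iron-responsive element near its 5′ end, a hairpin through which iron regulatory proteins hold back translation when iron is short. It is shown because it acts on translation, which counts of messenger RNA do not measure. Capitals mark the 6-base loop, which starts at base 96 of an annotated Alas2 transcript in GENCODE M21, and the 5 bases on either side of it can all pair, a G with a T included.
Alas2 iron-responsive element, 30 bases: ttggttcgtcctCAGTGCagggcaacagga

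Library totals ran from 9554964 to 17338214 counts. Globin genes took 56.3% ± 6.22 (SD, n = 9) of the counts in PBS blood, 49.2% ± 6.51 (n = 10) with ALY688, 30.4% ± 10.4 (n = 4) with LPS and 40.5% ± 11.0 (n = 7) with ALY688+LPS. Levels are normalised CPM (read counts brought to a common library total), scaled by TMM factors that bring the bulk of genes to a common level between libraries. In 6 libraries fewer than 16000 genes had a count (PBS mice 5, 6 and 9, ALY688 mouse 7, ALY688+LPS mice 6 and 8), and their low factors raise abundant erythroid transcripts on this scale. Main values of the enzymes are given with all libraries and then without these 6, called the few-gene libraries. Transcripts of liver, a major site of Alas1, summed to at most 1.90 CPM over 7 genes in any library, and 3 to 6 of the 7 were at 0.

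Alas1 stood about 6.6-fold higher in the blood of mice given LPS. In PBS blood its level ran from 5.73 to 14.0 CPM with a median of 9.07, and with ALY688 from 7.14 to 10.2 with a median of 9.10. The 4 LPS mice stood at 59.5, 37.1, 82.6 and 70.9 CPM (mice 2, 6, 7 and 8). The 7 mice given ALY688+LPS stood at 62.8, 58.1, 42.2, 63.5, 78.0, 47.0 and 70.9 CPM (mice 1, 3, 4, 6, 7, 8 and 10). Every library with LPS lay above every library without it, and the 2 groups within each condition overlapped. The log2 fold change was 2.73 ± 0.23 (SE) for LPS against PBS and 2.77 ± 0.12 for ALY688+LPS against ALY688. They were 2.68 ± 0.24 and 2.88 ± 0.13 without the few-gene libraries. These values rest on 19 to 2237 Alas1 reads per library.

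The size of the Alas1 difference depended on the scale, while the separation of the groups did not. By plain CPM of the library total, the LPS mean was 13.2-fold the PBS mean, and by CPM of the counts other than globin it was 8.46-fold. The same ratios for ALY688+LPS over ALY688 were 7.54 and 6.21. On all 3 scales no library with LPS overlapped one of its group for comparison without LPS. Ordered by mean level, the groups stood at 62.5 ± 19.4 CPM (SD, n = 4) in LPS, 60.4 ± 12.6 (n = 7) in ALY688+LPS, 9.45 ± 2.72 (n = 9) in PBS and 8.84 ± 1.11 (n = 10) in ALY688. Neighbours in that order differed by less than their SD, except ALY688+LPS and PBS. Of the other enzymes, Cpox also lay above every PBS library in LPS by plain CPM of the library total, with a 2.61-fold mean. How many of all genes separate the groups in this way was not counted.

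**Figure D1:**
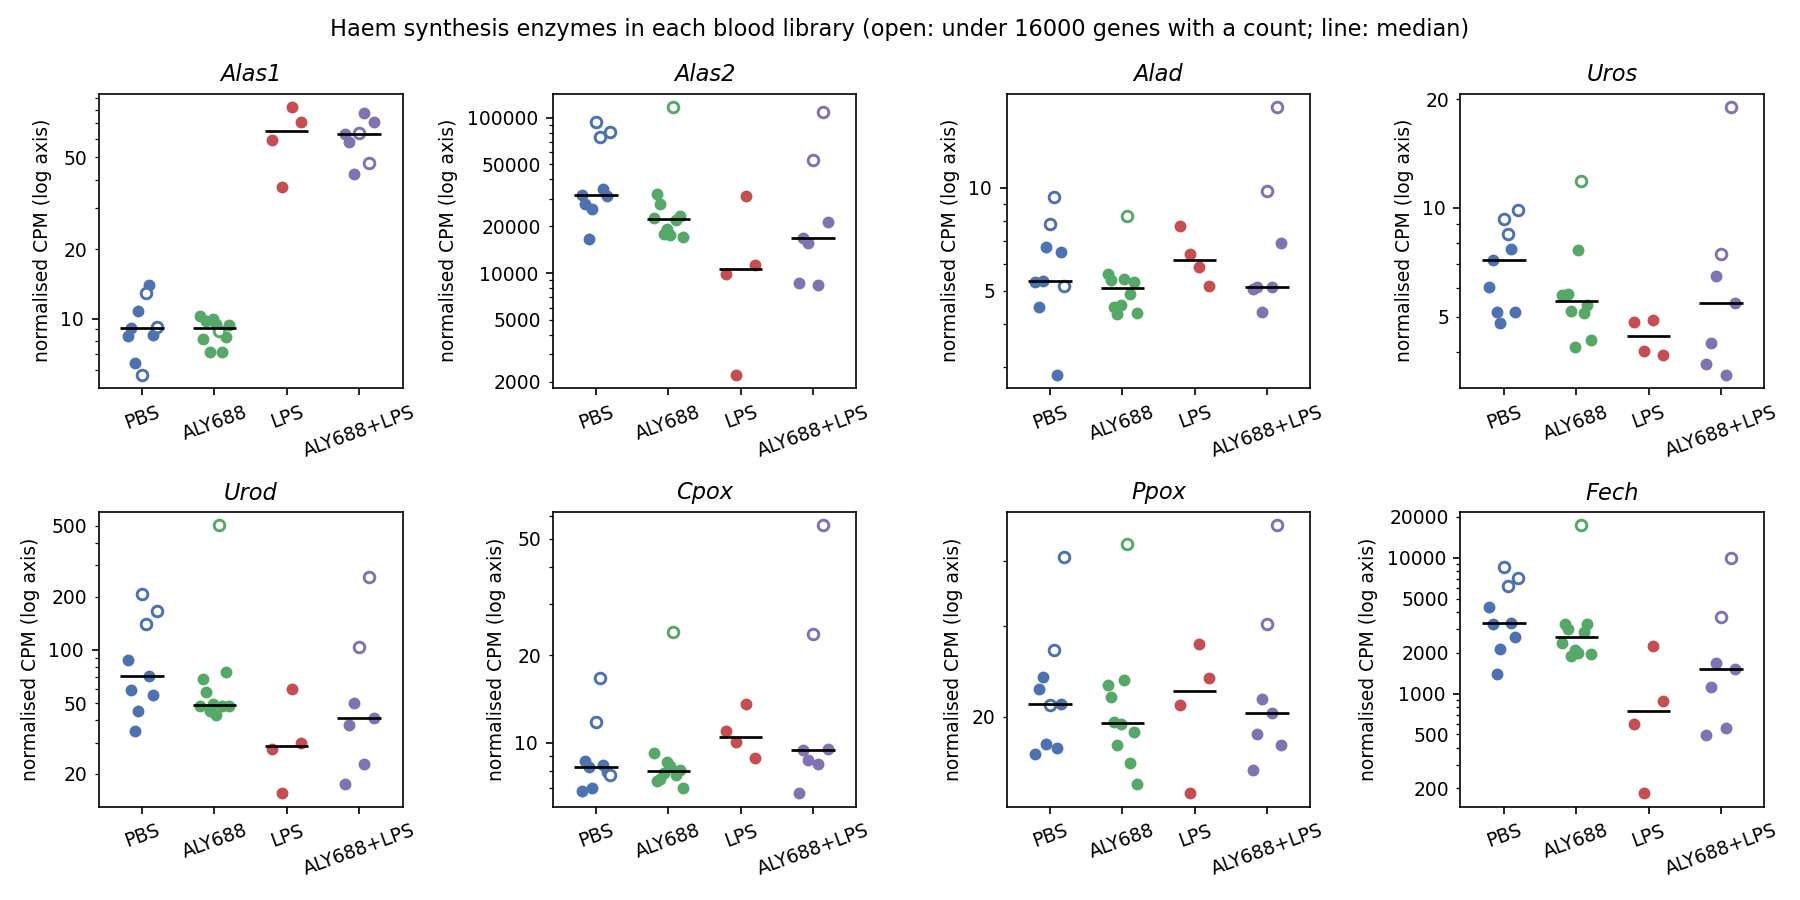
Level of each of the 8 enzymes in every blood library, in normalised CPM on a log axis, by treatment group (n = 9, 10, 4 and 7). Points are mice, open points are libraries in which fewer than 16000 genes had a count, and lines are group medians. Alas1 separates the libraries with LPS (37.1 CPM or more) from those without (14.0 or less), and for the other 7 enzymes the groups overlap on this scale.

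Alas2 was the most abundant of the enzymes by far and varied widely within each group. It took 86.7% to 93.4% of the reads of the 8 genes in every library, with 97187 to 429158 reads. Its level had a median of 31990 CPM in PBS blood (16655 to 93757) and 22173 in ALY688 blood (16999 to 117200). The 4 LPS mice stood at 9940, 2226, 31291 and 11272 CPM (mice 2, 6, 7 and 8). The ALY688+LPS mice ran from 8440 to 108980 with a median of 16722. All groups overlapped, with LPS mouse 7 as high as a typical PBS mouse and LPS mouse 6 below all other libraries.

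The log2 fold change of Alas2 was -1.74 ± 0.79 (SE) for LPS against PBS and 0.07 ± 0.69 for ALY688+LPS against ALY688. Neither direction was stable: the values were -1.08 ± 0.63 and -0.60 ± 0.27 without the few-gene libraries, and 1.29 ± 0.68 and 0.82 ± 0.30 with the globin percentage of each library as a covariate. Without the few-gene libraries the group means were 28063 ± 6453 CPM (SD, n = 6) in PBS, 22099 ± 5080 (n = 9) in ALY688, 13682 ± 12398 (n = 4) in LPS and 14149 ± 5562 (n = 5) in ALY688+LPS. On these, PBS and ALY688 differed by less than the PBS SD but by more than the ALY688 SD, and the 2 groups with LPS by less than either SD. With all libraries the order of means was PBS, ALY688+LPS, ALY688 and LPS, and each gap was smaller than the larger SD of the pair. In bulk blood, fewer cells of a type and less RNA per cell cannot be told apart.

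Red cell markers, like Alas2, varied widely within each group. The summed level of 14 red cell markers other than globins ran from 538 to 3849 CPM in PBS, from 657 to 8594 in ALY688, from 220 to 2221 in LPS and from 459 to 10638 in ALY688+LPS, with none of the 14 at 0 in any library. Of the 14, 1 was called higher and 2 lower in LPS against PBS, beside 20.9% and 17.9% of all genes, and 3 higher and 0 lower in ALY688+LPS against ALY688 (edgeR), beside 26.4% and 26.6%. Their median log2 fold change was -0.52 and 1.11. The counts were 2 and 0, then 5 and 2, without the few-gene libraries, beside 2735 and 2561 of 12303 genes, then 3846 and 3562 of 12735. With the globin covariate they were 11 and 0, then 12 and 0, beside 1623 and 1645 of 12353 genes, then 3513 and 3417 of 12266. The part of these markers in the Alas2 levels was not tested.

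A ratio taken within a library needs no scaling between libraries, and it put the 2 first-step genes side by side. There were 2376 to 16374 Alas2 reads for each Alas1 read in PBS blood (median 3648) and 1814 to 13271 in ALY688 blood (median 2639). In LPS mice 2, 6, 7 and 8 there were 167, 60.1, 379 and 159, and in ALY688+LPS blood 108 to 2320 (median 301). Per kilobase of exon, the log2 ratio of Alas1 to Alas2 was -13.4 ± 0.95 (SD, n = 9) in PBS, -12.9 ± 0.85 (n = 10) in ALY688, -8.65 ± 1.09 (n = 4) in LPS and -9.89 ± 1.52 (n = 7) in ALY688+LPS. By the length of the principal annotated transcript the means were -12.8, -12.2, -8.03 and -9.27 in the same order.

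All 4 LPS mice lay above all PBS mice in the ratio per kilobase of exon, -9.93 the lowest of the first and -12.6 the highest of the second. ALY688+LPS overlapped ALY688 through mouse 8 alone, a few-gene library at -12.5, against a highest ALY688 value of -12.2. Without the few-gene libraries the means were -12.9 ± 0.29 (n = 6), -12.6 ± 0.38 (n = 9), -8.65 ± 1.09 (n = 4) and -9.12 ± 0.78 (n = 5) in the same order. Even with LPS, Alas2 reads outnumbered Alas1 reads in every library.

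**Figure D2:**
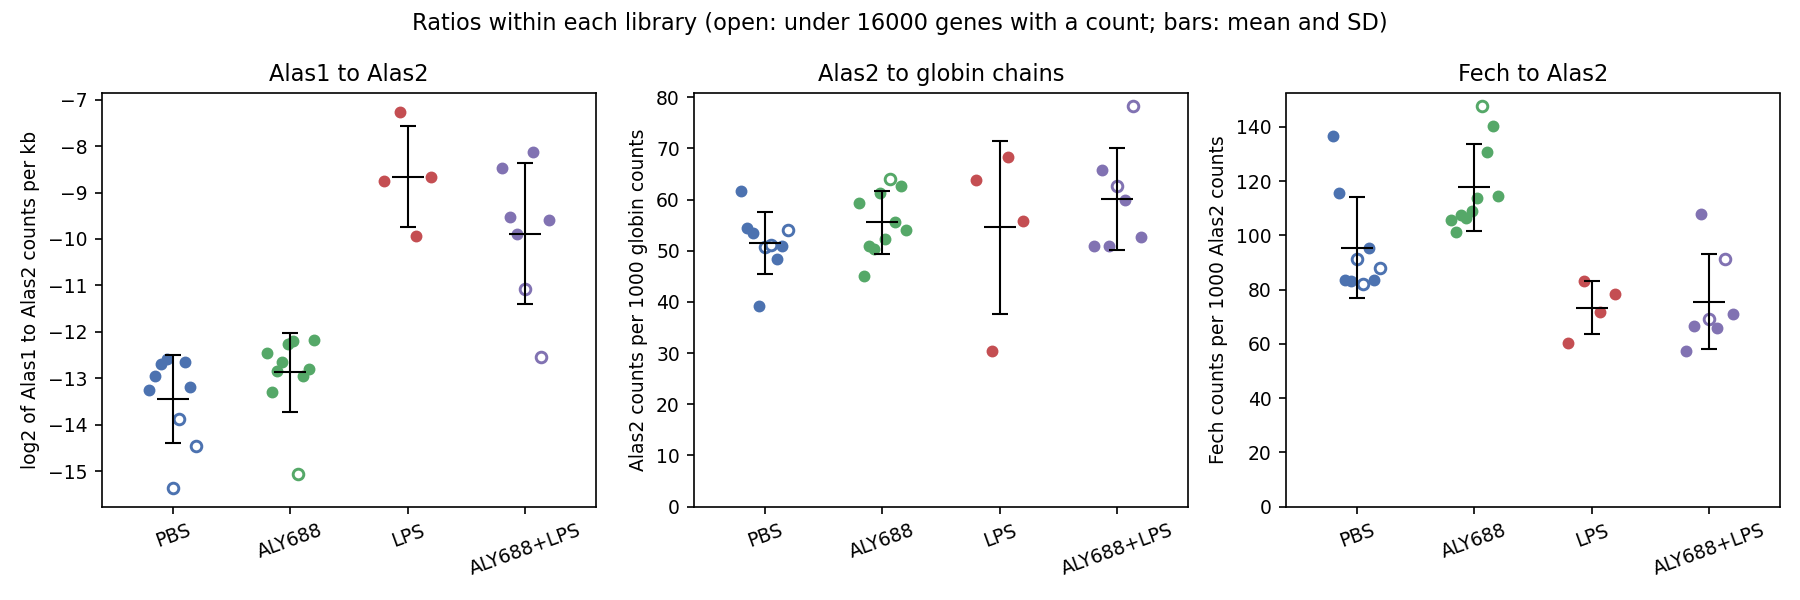
Ratios within each library by treatment group, with mean and SD: log2 of Alas1 to Alas2 counts per kilobase, Alas2 counts per 1000 globin counts, and Fech counts per 1000 Alas2 counts. The first is near -13 without LPS and -8.65 in LPS. The second has means of 51.5 to 60.2 in all 4 groups, and the third is 95.4 and 118 without LPS against 73.3 and 75.6 with it.

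Against the globin chains, the other large product of the erythroid programme, Alas2 had group means that differed by less than the largest SD, that of LPS. The ALY688+LPS mean lay above the PBS mean by more than the PBS SD but by less than its own. It gave 51.5 ± 5.98 reads per 1000 globin reads (SD, n = 9) in PBS, 55.6 ± 6.16 (n = 10) in ALY688, 54.6 ± 16.9 (n = 4) in LPS and 60.2 ± 9.97 (n = 7) in ALY688+LPS. The groups overlapped. LPS mouse 6, which also had the lowest globin share of all libraries at 18.5%, was the lowest at 30.4, and the other 3 LPS mice stood at 63.9, 68.3 and 55.8.

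Of the cytosolic enzymes that follow, Urod had the largest difference in LPS against PBS, and all 3 had a smaller one than Alas1. Alad, which joins 2 molecules of 5-aminolevulinic acid into porphobilinogen, had a median of 5.33 CPM in PBS, 5.10 in ALY688, 6.14 in LPS and 5.13 in ALY688+LPS. Uros, which closes the ring, had medians of 7.17, 5.53, 4.42 and 5.47 CPM in the same order. Its LPS values of 3.90 to 4.90 overlapped the PBS values of 4.80 to 9.88 at the lowest end. Urod, which removes carboxyl groups from the ring, had medians of 71.5, 49.0, 28.6 and 41.5 CPM, with an LPS range of 15.6 to 60.1 inside and below the PBS range of 34.7 to 206. Groups overlapped for all 3. The log2 fold changes in LPS against PBS were 0.11 ± 0.25 (SE) for Alad, -0.66 ± 0.23 for Uros and -1.52 ± 0.50 for Urod, and in ALY688+LPS against ALY688 they were 0.50 ± 0.24, 0.17 ± 0.31 and -0.39 ± 0.65. They were 0.26, -0.47 and -0.88, then 0.17, -0.18 and -0.62, without the few-gene libraries.

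Cpox and Ppox, the oxidases before the last step, had smaller differences across LPS than Alas1. Cpox had medians of 8.26 CPM in PBS, 7.98 in ALY688, 10.5 in LPS and 9.44 in ALY688+LPS, and without the few-gene libraries its LPS values (8.89 to 13.6) lay just above its PBS values (6.86 to 8.64). Ppox had medians of 21.2, 19.5, 22.4 and 20.3 CPM in the same order. Its groups overlapped with and without those libraries. The log2 fold changes in LPS against PBS were 0.25 ± 0.22 (SE) for Cpox and -0.09 ± 0.23 for Ppox. In ALY688+LPS against ALY688 they were 0.84 ± 0.41 and 0.16 ± 0.23. Without the few-gene libraries Cpox gave 0.44 ± 0.15 and 0.15 ± 0.10, and Ppox 0.085 and 0.011. With the globin covariate Cpox gave 1.01 ± 0.38 and 1.26 ± 0.25, and Ppox 0.54 and 0.50.

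Fech, which inserts iron to complete haem, was the most abundant of the enzymes after Alas2. Its level had a median of 3334 CPM in PBS (1389 to 8546), 2615 in ALY688 (1904 to 17317) and 1512 in ALY688+LPS (495 to 9928). In LPS mice 2, 6, 7 and 8 it stood at 600, 185, 2238 and 884 CPM. Only mouse 7 lay within the PBS range. The log2 fold change was -2.12 ± 0.69 (SE) for LPS against PBS and -0.56 ± 0.65 for ALY688+LPS against ALY688. With the few-gene libraries left out it was -1.59 ± 0.59 and -1.19 ± 0.29, with group medians of 2916 CPM in PBS, 2374 in ALY688, 742 in LPS and 1114 in ALY688+LPS.

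Set against Alas2 in the same library, Fech had lower group means with LPS than without. It gave 95.4 ± 18.6 reads per 1000 Alas2 reads (SD, n = 9; 82.1 to 136) in PBS, 118 ± 16.1 (n = 10; 101 to 148) in ALY688, 73.3 ± 9.84 (n = 4; 60.4 to 83.0) in LPS and 75.6 ± 17.6 (n = 7; 57.4 to 108) in ALY688+LPS. The LPS and PBS ranges met at 1 LPS mouse (mouse 6), and those of ALY688+LPS and ALY688 at mouse 4 alone of the ALY688+LPS mice. The means were 99.6, 114, 73.3 and 73.7 in the same order without the few-gene libraries. This ratio was added after the values were seen, and it is given with no test.

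**Figure D3:**
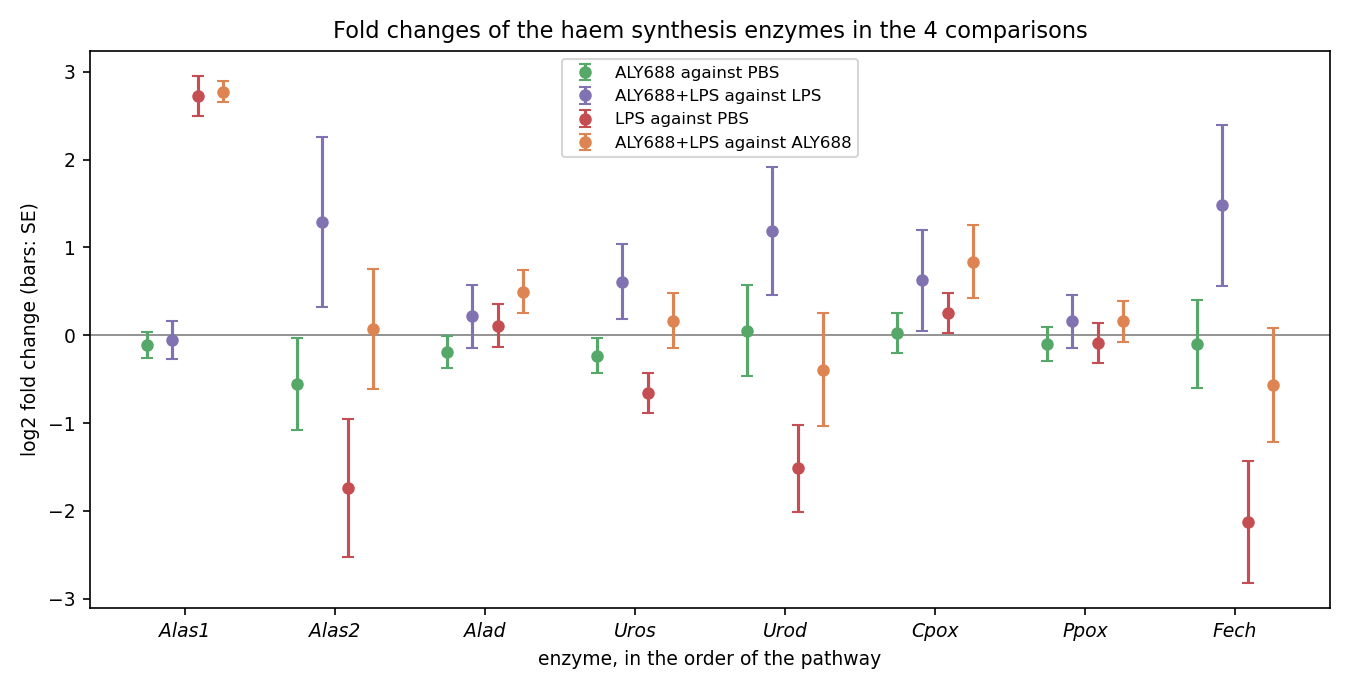
Log2 fold change with its SE for the 8 enzymes, in pathway order, in the 4 comparisons (edgeR, normalised for library size and composition). Alas1 stands at 2.73 and 2.77 in both comparisons of LPS with no LPS, while Fech, Alas2 and Urod are between -2.12 and -1.52 in LPS against PBS with SEs of 0.50 or more.

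Counted by the test over all genes, the members gave 1 call higher and 3 lower in LPS against PBS. The call was an adjusted p below 0.05 in edgeR, and Alas1 was the one called higher, with Uros, Urod and Fech called lower. Of all 12353 genes tested, 20.9% were called higher and 17.9% lower. In ALY688+LPS against ALY688, 1 member was called higher, again Alas1, and 0 lower, where 26.4% and 26.6% of 12266 genes were called. DESeq2 called 1 higher and 4 lower, then 1 higher and 0 lower. Of all genes it called 2759 and 2820 of 12353, then 3360 and 3569 of 12266. Since the choice of the members used these contrasts, nothing is read from the counts. The median log2 fold change of the 8 was -0.37 against -0.04 over all genes in the first comparison and 0.16 against -0.05 in the second.

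The lower calls depended on single libraries and on the scaling. Without LPS mouse 2, 6 or 8, 0 members were called lower, without LPS mouse 7 there were 4, and without the few-gene libraries only Fech was called lower. Of all genes, 1546, 1519 and 1488 were called lower without mouse 2, 6 and 8 in turn. The number was 2063 without mouse 7 and 2561 without the few-gene libraries. With library totals in place of TMM factors, the median of all genes moved from -0.04 to 1.04 in LPS against PBS, 5600 genes were called higher and 296 lower in place of 2577 and 2208, and Uros turned to 0.52. In ALY688+LPS against ALY688 the same change gave 1845 higher and 1204 lower in place of 3236 and 3268. With the globin percentage of each library as a covariate, Urod, Fech and Ppox turned to 0.80, 0.57 and 0.54 in LPS against PBS, as Alas2 did. The globin percentage itself differed between these groups. Over every setting run and without any single library, the log2 fold change of Alas1 ran from 2.47 to 3.72 in LPS against PBS and from 2.69 to 2.91 in ALY688+LPS against ALY688.

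ALY688 without LPS gave no call among the members, and 0% of 11708 genes were called. The log2 fold changes of the 8 ran from -0.55 ± 0.53 for Alas2 to 0.05 ± 0.52 for Urod, with Alas1 at -0.11 ± 0.15 and Fech at -0.10 ± 0.50. In edgeR, 0 members and 1250 of all genes had an unadjusted p below 0.05, and DESeq2 called 0 genes. Against LPS alone, ALY688+LPS also gave 0 calls among 12741 genes (0%), 463 with an unadjusted p below 0.05 in edgeR, none of them members, and 0 calls by DESeq2.

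Under LPS, Alas1 differed by -0.05 ± 0.22 between mice with and without ALY688, and Alas2, Fech and Urod by 1.29 ± 0.97, 1.48 ± 0.92 and 1.19 ± 0.73. Without the few-gene libraries, ALY688+LPS mice 6 and 8, those 3 values were 0.02, 0.10 and 0.01. For the interaction, the ALY688 difference under LPS minus that without LPS, 0% of 13476 genes were called by edgeR, with 1217 at an unadjusted p below 0.05 and 0 members among them. DESeq2 called 1 gene higher and 3 lower, none of them members. The values were 0.05 ± 0.25 for Alas1 and 1.84 ± 1.02 for Alas2.

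Per kilobase of exon, with all annotated exons of a gene joined, Alas1 changed its place among the enzymes. These lengths exceed those of the principal annotated transcripts, as in Ppox (4515 against 1821 bases) and Alas1 (6174 against 3399). Places that lie close together can therefore depend on the length used. In PBS blood the medians were 13313 CPM per kilobase for Alas2, 241 for Fech, 27.6 for Urod, 4.69 for Ppox, 2.85 for Alad, 2.00 for Uros, 1.47 for Alas1 and 1.24 for Cpox. With LPS, Alas1 had a median of 10.6, close to Urod at 11.1 and above Ppox at 4.97, with Alas2 at 4414 and Fech at 53.6. Its LPS range of 6.00 to 13.4 lay within the Urod range except at the lowest end, and overlapped the Ppox range of 3.15 to 6.13 through 1 mouse. With ALY688+LPS the medians were 10.2 for Alas1, 16.0 for Urod and 4.50 for Ppox.

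Within groups, the level of Alas2 was higher in libraries with more globin counts, while the relation of Alas1 to the globin share depended on the scale. Within PBS blood the Pearson r of log2 Alas2 level with the globin percentage was 0.81 (Spearman rho 0.60, n = 9), within ALY688 0.84 (rho 0.83, n = 10) and within ALY688+LPS 0.95 (rho 0.96, n = 7). Without the 2 libraries farthest from the median share, r was 0.65, 0.85 and 0.95. By plain CPM of the library total it was 0.49, 0.71 and 0.94. Without the few-gene libraries it was 0.64 in PBS (rho 0.14, n = 6) and 0.92 in ALY688 (n = 9), so the order of the PBS libraries rests on those left out.

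For Alas1 the r values were 0.27, -0.14 and -0.41 (rho 0.32, -0.32 and -0.36), and -0.38, -0.06 and -0.39 without the 2 libraries farthest from the median share. The r was 0.77 in PBS (rho 0.71, n = 6) and -0.19 in ALY688 (n = 9) when the few-gene libraries were left out. By CPM of counts other than globin it was -0.42, -0.73 and -0.84, and by plain CPM of the library total -0.61, -0.85 and -0.91. On both of those scales it was negative in each of the 3 groups. The 4 LPS libraries were too few for a correlation.

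These correlations are descriptions, since level and share come from the same library and both move with its depth and composition. By CPM of counts other than globin, Alas2 gave 0.88, 0.91 and 0.97. Fech on the first scale gave 0.70, 0.78 and 0.95, and Urod 0.71, 0.71 and 0.92. In PBS these 2 relations were not kept under other settings. Fech fell to 0.31 and Urod to 0.25 without the few-gene libraries (n = 6), and they stood at -0.02 and 0.04 by plain CPM of the library total.

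**Figure D4:**
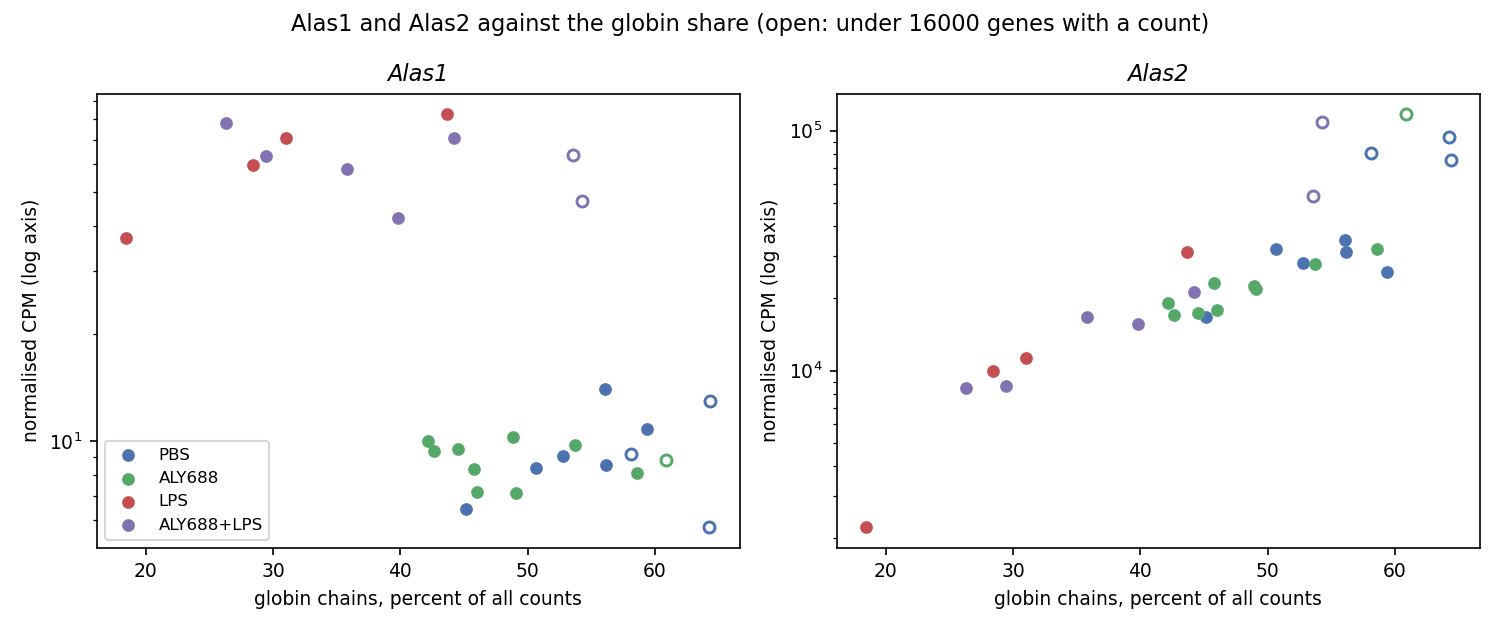
Alas1 and Alas2 level in normalised CPM (log axis) against the percentage of all counts from globin chains, 1 point per library, coloured by group, with open points for the libraries in which fewer than 16000 genes had a count. The lowest Alas2 level, 2226 CPM, is in the library with the lowest globin share, 18.5%, and Alas1 forms an upper set of libraries with LPS and a lower set without.

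Within groups, Alas2 varied together with Fech and Urod. After the group means were taken off, log2 levels over the 30 libraries gave r = 0.98 between Alas2 and Fech and 0.94 between Alas2 and Urod. Over the 24 libraries left without the few-gene ones, these were 0.95 and 0.86. The values with Uros, Ppox, Cpox and Alad were 0.80, 0.80, 0.78 and 0.62 over all libraries and 0.40, 0.52, 0.41 and -0.05 without the few-gene ones. Alas1 gave between -0.19 (Alad) and 0.13 (Alas2) with the other 7 over all libraries, and between -0.19 (Alad) and 0.52 (Alas2) over the 24. Points share their library and its scaling factor.

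By the same measure, the genes most like Alas2 among 10702 were Bpgm (0.996), which makes the 2,3-bisphosphoglycerate of red cells, Ube2l6 (0.995), a ubiquitin-type conjugating enzyme, Isca1 (0.994), an iron-sulphur cluster assembly protein, Fam220a (0.993) and Ubb (0.991), a ubiquitin gene. Those most like Alas1 were Pilrb1 (0.75), a paired immunoglobulin-like receptor, Ddx60 (0.73), an antiviral helicase, Slfn1 (0.71), a Schlafen family member, N4bp1 (0.71), an RNase-type regulator, and Fpr2 (0.71), a formyl peptide receptor of neutrophils. Over the 24 libraries the same genes gave 0.98 to 0.99 with Alas2 and 0.73 to 0.81 with Alas1.

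Markers of neutrophils moved with Alas1. All 13 neutrophil markers were called higher in LPS against PBS and 12 of 13 in ALY688+LPS against ALY688 (edgeR), where 20.9% and 26.4% of all genes were. Only 11 of the 13 passed the filter on low counts in ALY688 against PBS. The rest entered the tests through libraries with LPS, so a higher call of those is no support. Their summed level ran from 587 to 2224 CPM in PBS, 534 to 1472 in ALY688, 4379 to 15263 in LPS and 5749 to 14028 in ALY688+LPS, with at most 1 of the 13 at 0 in any library and none at 0 with LPS. Per 1000 neutrophil-marker reads there were 9.42 ± 3.18 Alas1 reads in PBS (SD, n = 9), 9.62 ± 2.86 in ALY688 (n = 10), 6.79 ± 1.39 in LPS (n = 4) and 5.59 ± 0.89 in ALY688+LPS (n = 7). Against these markers the mean Alas1 level was lower with LPS than without, with overlapping ranges.

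Per 1000 monocyte-marker reads, Alas1 gave 4.80 ± 2.31 in PBS, 5.51 ± 1.92 in ALY688, 26.3 ± 10.2 in LPS and 22.7 ± 6.04 in ALY688+LPS. Of 9 monocyte markers, 4 were called higher and 1 lower in each of the 2 comparisons, and their summed level overlapped between groups, 1024 to 5145 CPM in PBS and 2242 to 2874 in LPS. Markers of NK cells were higher as well: 6 of 7 were called in LPS against PBS and 3 of 7 in ALY688+LPS against ALY688, with median log2 fold changes of 1.67 and 0.68. Their summed level ran from 88.6 to 317 CPM in PBS, 101 to 267 in ALY688, 437 to 738 in LPS and 175 to 679 in ALY688+LPS, and none of the 7 was at 0 in any library. All 9 T cell and all 7 B cell markers were called lower in both comparisons, also with the globin covariate. The shares over all genes were 20.9% higher and 17.9% lower in LPS against PBS, then 26.4% and 26.6%. With the globin covariate, monocyte markers gave 2 higher and 0 lower, then 5 and 0. NK cell markers gave 2 and 0, then 3 and 0. With that covariate, 1623 of 12353 genes were called higher and 1645 lower, then 3513 and 3417 of 12266. The part of these cell types in the Alas1 level was not tested.

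Of 26 genes tested that supply the pathway with glycine, iron and iron-sulphur clusters, 1 was called higher and 4 lower in LPS against PBS. Of all genes, 20.9% and 17.9% were, so the lower calls were near the background. The counts were 2 and 0 without the few-gene libraries and 3 and 0 with the globin covariate. For all genes these settings gave 2735 higher and 2561 lower of 12303, and 1623 and 1645 of 12353. Slc25a39, a mitochondrial glutathione carrier, fell by 1.89 on the log2 scale (SE 0.67, edgeR adjusted p = 0.0355), and Glrx5, an iron-sulphur cluster glutaredoxin, fell by 1.78 (SE 0.58, adjusted p = 0.0232). Snx3, which takes part in transferrin receptor recycling, fell by 1.02 (SE 0.37, adjusted p = 0.0405), and the ferrireductase Steap3 rose by 1.36 (SE 0.44, adjusted p = 0.0230). The lower calls of Slc25a39, Glrx5 and Snx3 were each lost without LPS mouse 2, 6 or 8 and without the few-gene libraries, that of Slc25a39 also without PBS mouse 6, and that of Snx3 also without PBS mouse 1, 5, 6 or 9. With the globin covariate these 3 turned to 0.94, 0.94 and 0.62. The call of Steap3 was lost without LPS mouse 2 or 6 and with the globin covariate.

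The 2 carriers next to the first and last steps did not pass in LPS against PBS. Slc25a37 (mitoferrin 1), which brings iron into erythroid mitochondria, gave -1.51 ± 0.59 (edgeR adjusted p = 0.0530), which passed in DESeq2, without a filter, and without PBS mouse 3, 4 or 8 or LPS mouse 7, and turned to 0.76 with the globin covariate. Slc25a38, which brings in glycine, gave -0.03 ± 0.27 (adjusted p = 0.948). In ALY688+LPS against ALY688, 5 of the 26 were called higher and 0 lower, beside 26.4% and 26.6% of all genes. With the globin covariate 10 and 2 were called, beside 3513 and 3417 of 12266 genes. In the main fit of this comparison Slc25a38 gave 0.36 ± 0.13 (edgeR adjusted p = 0.0251). That call was lost without ALY688+LPS mouse 8, by library totals and with all 4 groups in 1 fit.

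Haem breakdown and transport stood out through Hmox1, the inducible haem oxygenase. Its level ran from 5.10 to 12.1 CPM in PBS, 4.96 to 12.7 in ALY688, 59.5 to 174 in LPS and 43.4 to 108 in ALY688+LPS, so every library with LPS lay above every one without. The log2 fold change was 3.49 ± 0.26 (edgeR adjusted p = 1.75e-07) for LPS against PBS and 3.25 ± 0.19 (adjusted p = 6.56e-11) for ALY688+LPS against ALY688. The constitutive Hmox2 rose by 0.98 ± 0.20 (edgeR adjusted p = 0.00108) and 1.05 ± 0.10 (adjusted p = 2.13e-08). Lrp1, which takes up haem bound to haemopexin, rose by 1.71 ± 0.32 and 1.51 ± 0.18, with edgeR adjusted p of 0.000547 and 9.81e-07. With the globin covariate the calls of Hmox2 and Lrp1 in LPS against PBS were lost, at 0.98 and 1.03.

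Hebp1, a haem-binding protein, fell by 2.16 (SE 0.56, edgeR adjusted p = 0.00665) in LPS against PBS and gave -0.63 ± 0.68 (adjusted p = 0.455) in the other comparison. With the globin covariate it turned to 0.42 in the first. Of the 11 genes tested in this list, 4 were called higher and 2 lower in the first comparison and 8 higher and 0 lower in the second. Of all genes, 20.9% and 17.9%, then 26.4% and 26.6%, were called. The lower calls became 1 and 2 without the few-gene libraries, beside 2561 of 12303 and 3562 of 12735 genes. With the globin covariate they became 0 in both, beside 1645 of 12353 and 3417 of 12266 genes.

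Among 16 regulators of Alas1 and haem sensors, 6 were called higher and 3 lower in LPS against PBS, and 9 and 5 in ALY688+LPS against ALY688. The lower calls of the first were near the background of 17.9% of all genes, and 20.9% were called higher, then 26.4% and 26.6%. Bach1, a repressor released from DNA by haem, rose by 1.20 ± 0.25 (edgeR adjusted p = 0.00142) and 1.42 ± 0.10 (adjusted p = 3.58e-10). Nfe2l2, which activates Hmox1 at the sites that Bach1 occupies, rose by 1.34 ± 0.23 and 1.70 ± 0.11, with edgeR adjusted p of 0.000267 and 2.99e-10. Bach2, abundant in lymphocytes, fell by 2.46 in both comparisons (SE 0.36 and 0.30), with edgeR adjusted p of 6.11e-05 and 1.65e-06. Foxo1, an activator of Alas1 in liver, fell by 1.97 (SE 0.27) and 1.93 (SE 0.23), with edgeR adjusted p of 4.00e-05 and 9.73e-07. By library totals the calls of Bach2 and Foxo1 in LPS against PBS were lost, at -1.44 and -0.94. Nr1d1 (REV-ERBα), a haem-sensing repressor, was near the floor at 0.69 to 1.03 CPM on average and gave -0.49 ± 0.48 (edgeR adjusted p = 0.442) in LPS against PBS.

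The erythroid regulators gave no call higher and 2 lower of 10 in LPS against PBS, near the 17.9% of all genes called lower. With the globin covariate there were 4 and 1, beside 1623 and 1645 of 12353 genes. Lmo2 and its partner Ldb1, members of the GATA1 complex, fell by 1.70 (SE 0.41, edgeR adjusted p = 0.00418) and 0.92 (SE 0.24, adjusted p = 0.00696). In ALY688+LPS against ALY688, Ldb1 fell by 1.23 (SE 0.13, edgeR adjusted p = 1.20e-07), and Lmo2 gave 0.06 ± 0.55 (adjusted p = 0.933), with 3 genes of 11 called higher and 1 lower, beside 26.4% and 26.6% of all genes. By library totals Ldb1 turned to 0.079 in LPS against PBS and the call of Lmo2 was lost, and with the globin covariate Lmo2 turned to 0.27. When the few-gene libraries were left out, 3 of 11 were called lower in ALY688+LPS against ALY688, beside 3562 of 12735 genes, and Lmo2 turned to -0.84.

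Gata1 itself gave -0.16 ± 0.61 (edgeR adjusted p = 0.858) in LPS against PBS and 1.01 ± 0.35 (adjusted p = 0.0237) in ALY688+LPS against ALY688, a call lost without ALY688+LPS mouse 6, 8 or 10 and with all 4 groups in 1 fit. In LPS against PBS it turned to 1.01 by library totals, 0.69 without the few-gene libraries and 3.11 with the globin covariate. Tal1, in the same complex, gave -1.14 ± 0.62 and -0.01 ± 0.41, with edgeR adjusted p of 0.162 and 0.983, and turned to 2.27 in the first with the globin covariate. Aco1 (iron regulatory protein 1), which binds the element shown for Alas2, gave 0.35 ± 0.19 (edgeR adjusted p = 0.164) and 0.11 ± 0.10 (adjusted p = 0.388). Klf1 averaged 0.52 to 1.97 CPM and was tested only in comparisons with ALY688+LPS. It gave 1.54 ± 0.78 against ALY688 (edgeR adjusted p = 0.107), and passed without ALY688+LPS mouse 7.

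Proteins that use haem or feed electrons to haem enzymes gave 9 calls higher and 4 lower of 19 in LPS against PBS, and 9 higher and 0 lower in ALY688+LPS against ALY688. Of all genes, 20.9% and 17.9%, then 26.4% and 26.6%, were called, so the 4 lower calls were near the background. With the globin covariate the first counts were 3 and 1, beside 1623 and 1645 of 12353 genes. Nos2, the inducible nitric oxide synthase, was at 0 in most libraries without LPS, where it reached at most 0.20 CPM, and ran from 10.6 to 32.1 CPM in LPS and 5.38 to 33.1 in ALY688+LPS. It was not tested in ALY688 against PBS, so it passed the filter on low counts only through libraries with LPS. Its calls, among the 9 higher in each comparison, are therefore no support, and no p is given. Cyba, a subunit of the phagocyte oxidase cytochrome, rose by 1.04 ± 0.20 (edgeR adjusted p = 0.000752) and 1.26 ± 0.15 (adjusted p = 7.49e-07). Por, the reductase of microsomal cytochromes P450, rose by 1.32 ± 0.17 and 1.32 ± 0.11, with edgeR adjusted p of 2.49e-05 and 4.22e-09. Cycs, cytochrome c, rose by 1.09 ± 0.20 and 0.94 ± 0.18, with edgeR adjusted p of 0.00059 and 0.000174, and the first of these calls was lost with the globin covariate, at 0.75.

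In the 2 comparisons of ALY688 with its control, 0 genes of these 5 lists were called by edgeR. Of all 11708 and 12741 genes tested, 0% were called. Nothing particular to the lists, which include Hmox1, Bach1, Nfe2l2, Cyba and Por, is therefore read from this.

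**Figure D5:**
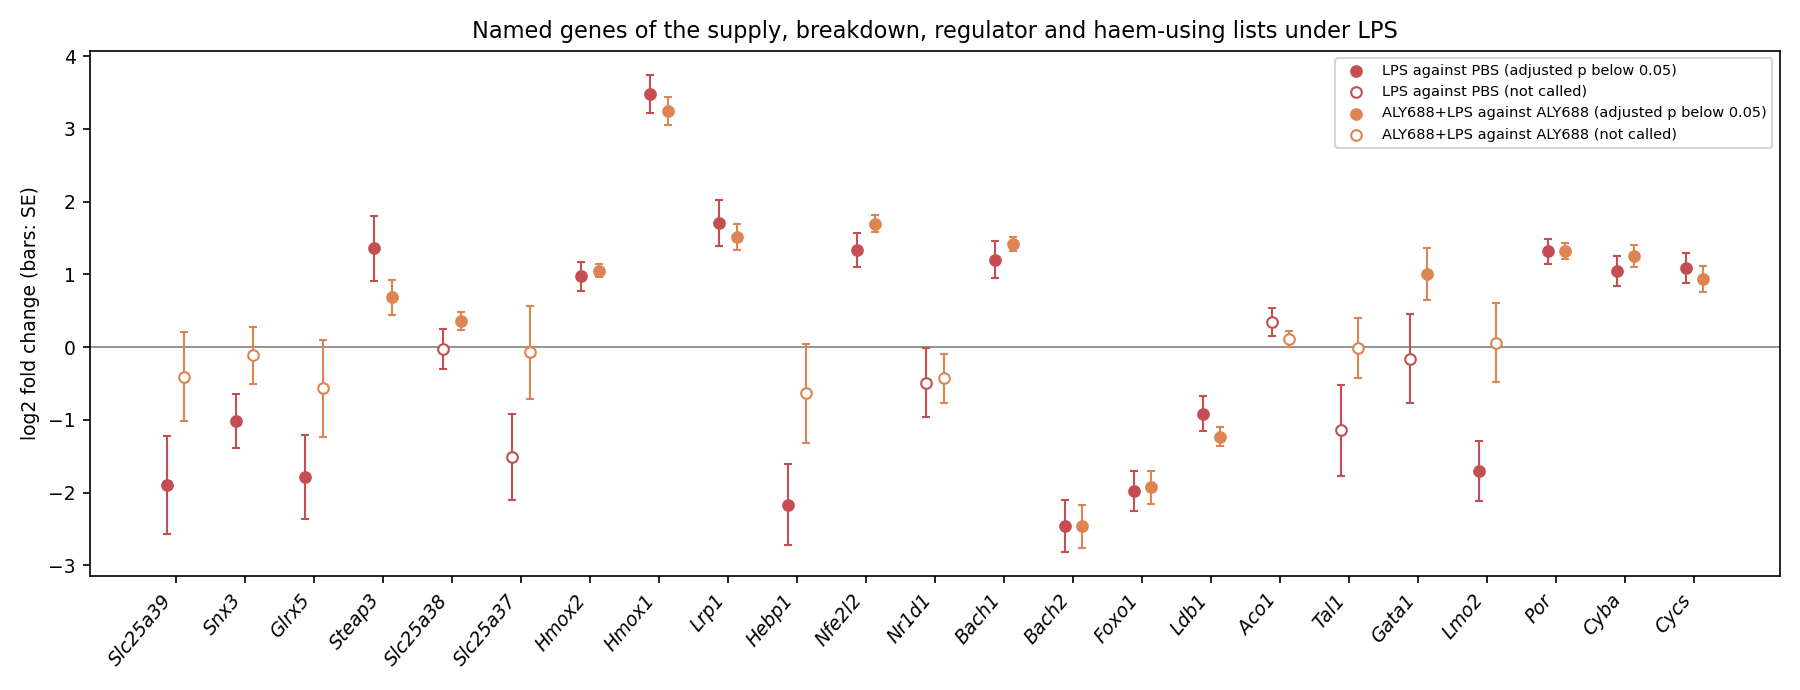
Log2 fold change with SE for the named genes around the pathway, in LPS against PBS and in ALY688+LPS against ALY688. Filled points passed an edgeR adjusted p below 0.05 over all genes and open points did not. Nos2, at 0 in most libraries without LPS, and Klf1, tested in 1 of the 2 comparisons, are not drawn. Of the genes drawn, Hmox1 stands highest at 3.49 and 3.25, Bach1 and Nfe2l2 lie between 1.20 and 1.70, and Bach2 lies lowest at -2.46.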

How the data were processed

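Poly(A) messenger RNA of blood was sequenced, per the labels' protocols. The authors deposited whole-number read counts per gene, 1 table per mouse, with 54532 gene IDs and no normalization. The submitters' processing notes name HISAT2 2.0.5 and featureCounts 1.5.0-p3. No source used here gives the build, the annotation or the strand setting, so reads of Alas1, Alas2, Uros, Cpox and Ppox cannot be told apart from those of annotated genes that overlap them. The 30 mice with count tables were used, of 34 labelled; those not analysed here are PBS mouse 10 and mice 3, 4 and 5 of LPS. Symbols, exon lengths and overlaps came from GENCODE M21 (GRCm38).

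Groups were compared with edgeR 4.0.16 in R 4.3.3 (TMM factors, filterByExpr, robust quasi-likelihood F-test, two-sided), with p-values adjusted by Benjamini-Hochberg over all genes tested. Only the groups compared entered a fit, and all 4 entered the interaction. The same steps run on simulated counts with 200 changed genes recovered the sign of those called. DESeq2 1.42.0 was an alternative, beside other scalings, no filter, 1 fit of all groups, a replicate block, a globin covariate, and fits without the few-gene libraries or without each library. Correlations between members without the few-gene libraries were added after the data were seen. Log2 levels used a prior count of 2 in the correlations between genes. In those with the globin share, 0.5 was added to the CPM.

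The members and the gene lists were chosen with earlier results of these data known. Beside all members, the text names up to 4 genes of each of 5 related lists with the smallest unadjusted p in LPS against PBS, then Hmox1, Slc25a37, Slc25a38, Bach1, Nr1d1, Gata1 and Klf1 whatever their values, and the 5 genes most correlated with Alas1 and with Alas2. Of 15 red cell markers listed, 14 were matched by symbol. Reads carry no molecular identifiers, so depth covers counting error only.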

Additional observations from a re-analysis of the deposited data

Results flagged for a closer look

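In 15 of 44 group checks, 1 library stood apart from the rest of its group by Dixon's criterion. Chance meets it in about 1 of 20 groups when values are normal and checks independent. These checks share libraries, so that rate is only a rough guide. All 15 values came from libraries in which fewer than 16000 genes had a count. ALY688 mouse 7 was the highest of its group in 6 enzymes: Alas2 at 117200 CPM (next 32075), Alad at 8.28, Uros at 11.9, Urod at 504 (next 74.6), Cpox at 24.0 and Ppox at 43.3. The same mouse was also highest for Fech, at 17317 CPM against 3262 for the next, and lowest for the log2 ratio of Alas1 to Alas2 at -15.1. ALY688+LPS mouse 8 was the highest of its group for Alad at 17.3 CPM, Uros at 19.0, Urod at 256, Cpox at 55.6 and Fech at 9928. PBS mouse 6 was the highest for Cpox at 16.7 CPM and PBS mouse 9 for Ppox at 40.7 CPM. No value of Alas1 met the criterion in any group.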

How the results depend on the processing

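The counts of members called in LPS against PBS moved with the settings. The count called higher was 1 and became 4 with library totals in place of scaling factors and 2 without the few-gene libraries. Of all genes, 2577 were called higher in the main fit, and 5600 and 2735 under these 2 settings. The count called lower was 3 and became 1 without a filter, with all 4 groups in 1 fit and without the few-gene libraries, and 0 with the globin percentage as a covariate. Of all genes, 2208 were called lower in the main fit, and 1723, 2823, 2561 and 1645 under these settings in turn. When single libraries were left out, members called lower ran from 0 to 4, and all genes called lower from 1488 to 2291. In ALY688+LPS against ALY688 the count called higher was 1 and became 2 with all 4 groups in 1 fit, 6 with the globin covariate, and 1 to 3 without single libraries. Of all genes, 3236 were called higher in the main fit, and 3317, 3513 and 3055 to 3477 under these settings in turn. The count called lower was 0 and became 1 with library totals and 2 without the few-gene libraries. Of all genes, 3268 were called lower in the main fit, and 1204 and 3562 under these. The other counts of members called kept their value or stayed within 1.5 times of it. With mouse number as a replicate block, 0 members were called lower in LPS against PBS in place of 3, and 1555 of all genes in place of 2208. Whether the numbers pair the mice is not known. Correlations of same-numbered mice, after group means were taken off, ran from -0.50 to 0.30. They cannot settle it, since depth and composition of each library also move them.

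Beside the single libraries left out, signs of 16 of 32 genes (members and named genes, called or not) turned in LPS against PBS and of 11 of 33 in ALY688+LPS against ALY688. In LPS against PBS, library totals turned Uros (0.52), Ppox (0.96), Gata1 (1.01), Ldb1 (0.079), Nr1d1 (0.45), Slc25a38 (1.13), Snx3 (0.18) and Tal1 (0.051). The globin covariate turned Alas2 (1.29), Urod (0.80), Ppox (0.54), Fech (0.57), Gata1 (3.11), Glrx5 (0.94), Hebp1 (0.42), Lmo2 (0.27), Nr1d1 (0.13), Slc25a37 (0.76), Slc25a38 (1.07), Slc25a39 (0.94), Snx3 (0.62) and Tal1 (2.27). Without the few-gene libraries Ppox, Gata1 and Slc25a38 turned to 0.085, 0.69 and 0.32. In ALY688+LPS against ALY688 the covariate turned Urod (0.62), Fech (0.26), Glrx5 (0.48), Hebp1 (0.46), Slc25a37 (0.83), Slc25a39 (0.47), Snx3 (0.59) and Tal1 (0.50), and leaving out ALY688 mouse 7 turned the same 8. Without the few-gene libraries Alas2 turned to -0.60, Uros to -0.18, Lmo2 to -0.84 and Tal1 to 0.030. The remaining turns were of Alas2, Alad, Uros, Ppox, Gata1, Lmo2, Slc25a37, Slc25a38 and Tal1 under other settings or without single libraries. The causes were not tested. Correlations with the globin share moved by more than their jackknife SE in 61 of 96 values under other settings, the Fech value in PBS from 0.70 to as low as -0.02. The differences in the ratios of Alas1 to Alas2, Alas2 to globin and Fech to Alas2 moved by less than 1 SD under every alternative. Called counts of the 5 related lists in LPS against PBS ranged more widely, such as 1 to 13 supply genes higher (main 1), 0 to 6 lower (main 4), 0 to 6 erythroid regulators higher (main 0) and 3 to 13 haem-using genes higher (main 9). Over the same settings the number of all genes called ran from 1623 to 5600 higher and from 296 to 2823 lower.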
